A study of Mus musculus with 9 samples.

Results

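The CHD proteins (chromodomain helicase DNA-binding proteins) are encoded in the mouse by 9 genes, Chd1 to Chd9. They were taken from the deposited table by gene symbol, which found all 9 among the 55414 genes listed, and all 9 were among the 25128 genes with enough counts to be tested. RNA had been sequenced from round spermatids (RS), the haploid cells that follow the second meiotic division, in 9 libraries of 3 groups. The vehicle group (libraries 1 to 3) received 0.15% DMSO, the oxamate group (libraries 4 to 6) 24 mM oxamate, an inhibitor of lactate dehydrogenase, with the same DMSO, and the third group (libraries 7 to 9) 24 mM oxamate with 0.3 mM octyl-L-2HG, an esterified L-2-hydroxyglutarate (L-2HG) that enters cells, also in 0.15% DMSO. All groups were kept for 24 h in a medium with lactate and pyruvate. All cells were labelled wild type (WT) and, by the study's methods, were sorted for size and fluorescence from adult Stra8-Tom mice, in which Cre recombinase under the Stra8 promoter switches on tdTomato in the germ line. The treatments were designed to lower L-2HG with oxamate and to return it with octyl-L-2HG, so the comparisons ask which transcripts moved at each step. There was no group with octyl-L-2HG alone.

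CHD proteins use ATP to slide, space or evict nucleosomes and carry a pair of chromodomains. Subfamily I (Chd1 and Chd2) works with the transcribing polymerase, subfamily II (Chd3, Chd4 and Chd5) supplies the motor of the nucleosome remodelling and deacetylase complex (NuRD) or related complexes, and subfamily III (Chd6 to Chd9) acts at enhancers and promoters of developmental genes. In spermatids, Chd5 is needed for the removal of histones before transition proteins and then protamines pack the sperm genome.

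The libraries held between 32339533 and 39888396 counted reads, and oxamate library 4 stood apart from its group. The chi-square per degree of freedom between its counts and those of oxamate libraries 5 and 6 was 16.66 and 20.73, against 1.98 between libraries 5 and 6. In the vehicle group library 1 gave 10.69 and 10.13, against 5.86 between libraries 2 and 3. The summed level of 10 round spermatid markers ran from 3544 to 3620 CPM (counts scaled to the same library size) in vehicle cells, from 3474 to 3614 with oxamate and from 3390 to 3462 with both compounds, so the libraries with both compounds lay below the other 6. The single markers went both ways, 4 of 10 with a higher mean than in vehicle cells and 6 with a lower one, with Gapdhs at 713.5 CPM in vehicle cells and 609.5 with both compounds and Acrv1 at 250.8 and 297.5. The 8 spermatocyte markers summed to between 506.1 and 599.9 CPM in the 9 libraries, with overlapping groups, while the 7 spermatogonial markers summed to 16.72 to 18.48 with vehicle, 20.44 to 21 with oxamate and 18.77 to 20.5 with both compounds, a sum led by Dazl (mean 10.62 CPM in vehicle cells and 12.96 with oxamate), while 3 of the 7, Uchl1, Zbtb16 and Dmrt1, had a lower mean with oxamate. Sertoli, Leydig and peritubular myoid marker lists each summed to at most 3.128 CPM in any library, and the 5 immune markers to at most 3.389, with the macrophage gene Lyz2 at 0 counts in all 9. No part of these marker levels in the CHD results was tested.

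Chd5 had the highest level per length of the 9 genes. In vehicle cells its level was 46.44 ± 6.07 CPM per kb of exon (SD, n = 3), followed by Chd4 with 29.01 ± 1.13. Chd3 and Chd1 followed with 5.78 ± 0.45 and 3.952 ± 0.149 CPM per kb. The subfamily III gene Chd8 stood at 1.073 ± 0.0825, and the remaining 4 genes lay below 1 CPM per kb. Of these, Chd7 and Chd2 could not be ordered, with 0.5012 ± 0.0879 and 0.4864 ± 0.0529 and overlapping libraries, while Chd9 with 0.2163 ± 0.0363 lay above Chd6 with 0.1371 ± 0.0148 in each vehicle library. The remaining neighbours in this order did not overlap in the vehicle group. Lengths are the union of annotated exons, from 8.02 kb for Chd4 to 23.1 kb for Chd9, against a median of 2.95 kb over the genes tested, and an isoform with shorter ends would make the true level per length higher.

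Subfamily II therefore held nearly all CHD transcripts, from 92.5% to 93.8% of the summed level per length in each library. Within it the share of Chd5 was 56%, 55.7% and 59.4% in the vehicle libraries, 55.5%, 57.4% and 57.2% with oxamate, and 51.2%, 49.5% and 49.3% with both compounds. The share of Chd4 was 36.8%, 37.2% and 33.6%, then 38%, 36.2% and 36.6%, and 41.3%, 42.5% and 43%. Vehicle and oxamate libraries thus overlapped in the shares of Chd5 and Chd4, whereas the 3 libraries with both compounds had the 3 lowest Chd5 shares and the 3 highest Chd4 shares. The share of Chd3 was lowest with oxamate, between 6.18% and 6.45%, against 7.01% to 7.24% with vehicle and 7.48% to 8.02% with both compounds. These shares were not tested.

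**Figure D1:**
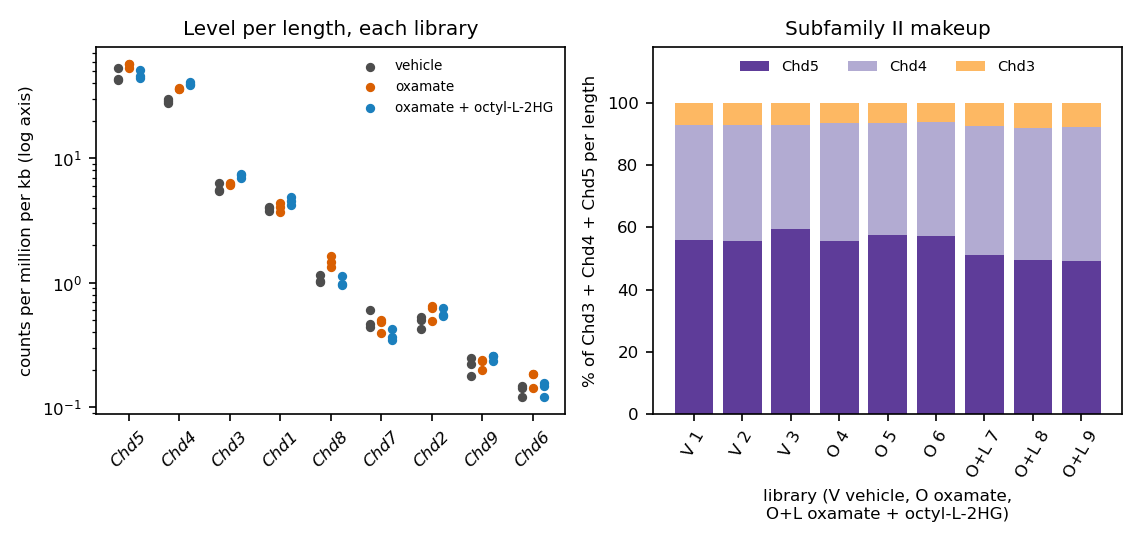
Level of each CHD gene in CPM per kb of exon on a log axis, 1 point per library coloured by group (left), and the percentage of the summed Chd3, Chd4 and Chd5 level per length in each library (right). Chd5 and Chd4 stand well above the other genes, and the Chd5 share lies between 49.3% and 51.2% in the 3 libraries with both compounds and at 55.5% or more in the other 6.

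Promoter windows of 300 bases, most of them upstream of a transcript start, were at hand for 5 of the 9 members (RefSeq, GRCm38.p6). The windows of the 3 members whose transcripts moved most clearly or are best known in spermatids are shown on their own strand, with 2 letter motifs in capitals: GTTGCC, an arm of the X-box that RFX factors bind, and CGTCA, the core of the cyclic AMP response element that CREM binds. Both were searched on both strands, no base lay in both, and they were chosen after the sequences had been seen. Chd5 is at chr4:152338401-152338700 on the plus strand, Chd4 at chr6:125095731-125096030 on the plus strand and Chd8 at chr14:52257711-52258010 on the minus strand.
Chd5: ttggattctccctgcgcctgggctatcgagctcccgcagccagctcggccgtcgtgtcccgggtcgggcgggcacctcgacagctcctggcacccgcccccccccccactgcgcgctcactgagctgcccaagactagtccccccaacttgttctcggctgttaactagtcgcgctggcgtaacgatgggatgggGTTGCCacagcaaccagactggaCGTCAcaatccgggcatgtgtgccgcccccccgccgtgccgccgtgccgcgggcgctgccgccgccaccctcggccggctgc
Chd4: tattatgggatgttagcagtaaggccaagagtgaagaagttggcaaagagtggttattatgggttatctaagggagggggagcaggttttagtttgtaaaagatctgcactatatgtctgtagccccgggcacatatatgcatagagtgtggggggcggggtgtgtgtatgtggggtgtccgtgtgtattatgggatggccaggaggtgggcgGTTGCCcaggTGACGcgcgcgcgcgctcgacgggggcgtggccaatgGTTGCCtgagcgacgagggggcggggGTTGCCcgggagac
Chd8: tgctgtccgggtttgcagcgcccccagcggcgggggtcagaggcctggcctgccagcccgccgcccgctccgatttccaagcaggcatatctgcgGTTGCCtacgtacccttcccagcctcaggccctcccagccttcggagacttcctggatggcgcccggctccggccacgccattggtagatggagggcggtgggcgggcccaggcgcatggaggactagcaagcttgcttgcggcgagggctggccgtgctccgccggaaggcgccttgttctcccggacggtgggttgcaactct
The Chd5 window held 1 GTTGCC from base 196, followed after 3 bases by GCAAC, the other arm of an X-box, and 1 CGTCA from base 219. The Chd4 window held 3 copies of GTTGCC, from bases 214, 261 and 287, and 1 CGTCA on the opposite strand from base 224. The Chd8 window held 1 GTTGCC from base 96 and no CGTCA, and the Chd6 and Chd9 windows held neither. Of 32851 promoter windows of the same length, 12.5% held GTTGCC and 20.8% CGTCA, and both arms of the X-box at this spacing were found in 49 (0.149%). Chd4 and Chd9 each have a further start with a window of its own and Chd5 one that begins 3 bases later. A match is a description of the letters only.

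With oxamate, 2 of the 9 members rose, Chd4 and Chd8, and none fell, by the quasi-likelihood test of edgeR at a Benjamini-Hochberg adjusted p under 0.05. Of all genes tested, 3.97% rose and 1.22% fell in this comparison, and of the 10715 genes whose normalized counts averaged 100 or more, as those of all members did, 9.67% were called. The median log2 fold change of the 9 members was 0.27, with 8 of 9 above 0, against -0.01 over all genes tested and 0.01 over the 10715. At an unadjusted p under 0.05 the count was 5 of 9 members, against 17.3% of all genes tested and 25.7% of the 10715.

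When octyl-L-2HG was added to oxamate, 1 member rose (Chd3) and 1 fell (Chd8). The background was 3.18% of all genes rising and 8.06% falling, and 19.8% called among these more abundant genes. The median over the members was -0.04, as it was over all genes tested, against 0.01 over the more abundant genes, with members running from -0.53 to 0.22. At an unadjusted p under 0.05 the count was 6 of 9 members, against 23.6% of all genes and 36.8% of the more abundant ones. With total counts in place of TMM scaling, Chd3 was no longer called and Chd5 was called lower, so the split became 0 higher and 2 lower. Over all genes that scaling called 421 higher and 2516 lower, against 798 and 2025 with TMM, and DESeq2's size factors called 1106 and 1831.

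With both compounds against vehicle, 2 members rose (Chd4 and Chd3) and 1 fell (Chd7). Of all genes tested, 7.48% rose and 10.6% fell, and 29.5% of the more abundant genes were called. The member median was 0.20, against -0.05 over all genes and 0.03 over the more abundant ones, and 5 of 9 had an unadjusted p under 0.05, where 30% of all genes and 44.1% of the more abundant ones did. Total counts as scaling moved the median of all genes to -0.11 and their split from 1879 higher and 2655 lower to 1231 and 3367, and with DESeq2's size factors it was 2206 and 2493. The calls of the members were the same 3 genes under both scalings. The comparisons share libraries, so they are not independent of each other. Over all 3 groups together 4 members differed (Chd3, Chd4, Chd5 and Chd8), against 19.8% of all genes tested and 33.5% of the more abundant ones.

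**Figure D2:**
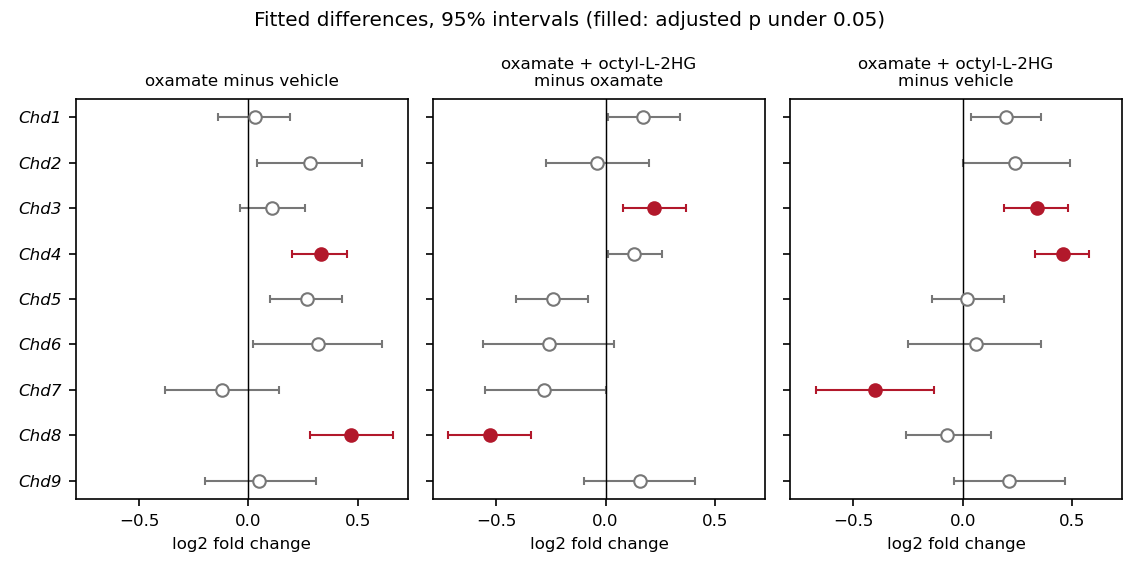
Fitted log2 fold change of each CHD gene in the 3 comparisons, with 95% intervals from edgeR's quasi-likelihood fit and filled red points where the adjusted p was under 0.05. Chd8 is called in opposite directions at the 2 steps, while Chd4 lies at 0.33 with oxamate and 0.46 with both compounds.

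Chd4, also known as Mi-2beta and the usual motor of NuRD in dividing cells, rose with oxamate and stayed high when octyl-L-2HG was added. Its level (ENSMUSG00000063870) was 224, 231.8 and 242.2 CPM in vehicle cells, 290.9, 288.6 and 296.3 with oxamate and 331.4, 315.1 and 312.7 with both compounds. The 3 groups did not overlap, in the order vehicle, oxamate, both. The log2 fold change was 0.33 (SE 0.06, adjusted p = 0.0019) with oxamate and 0.46 (SE 0.06, adjusted p = 1.48e-05) with both compounds against vehicle, or 1.25-fold and 1.37-fold. The step from oxamate to both was 0.13 with a 95% interval from 0.01 to 0.26 and did not pass the test (adjusted p = 0.189). The calls against vehicle were kept under all 8 alternative settings and with each of the 9 libraries left out. In these bulk libraries, fewer cells of a type and less RNA per cell cannot be told apart, for this and each following gene.

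Chd8, a repressor of beta-catenin target genes, rose with oxamate and fell again when octyl-L-2HG was added. Its level (ENSMUSG00000053754) was 16.72, 17.18 and 19.27 CPM in vehicle cells, 22.14, 24.44 and 26.93 with oxamate and 18.77, 15.94 and 16.11 with both compounds. All 3 oxamate libraries lay above the other 6, whereas the vehicle group and the group with both compounds overlapped. The log2 fold change was 0.47 (SE 0.09, adjusted p = 0.00294) for oxamate against vehicle, a 1.38-fold rise, and -0.53 (SE 0.09, adjusted p = 0.000633) for both compounds against oxamate. Against vehicle the group with both compounds differed by -0.07, with a 95% interval from -0.26 to 0.13 (adjusted p = 0.697). Both steps were called under all 8 alternative settings and with each library left out, when the oxamate effect ran from 0.39 to 0.53 and the second step from -0.61 to -0.46.

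Chd5, the member with the spermatid function, had its highest mean with oxamate, but neither step passed the test. Its level (ENSMUSG00000005045) was 407.8, 415.3 and 512.1 CPM in vehicle cells, 507.5, 546.9 and 552.7 with oxamate and 490.9, 438.8 and 427.9 with both compounds. Vehicle library 3 reached into the oxamate group, lying above oxamate library 4, and each library with both compounds lay under the whole oxamate group. The log2 fold change was 0.27 (SE 0.08, 95% interval 0.10 to 0.43, adjusted p = 0.0543) with oxamate and -0.24 (SE 0.08, 95% interval -0.41 to -0.08, adjusted p = 0.0519) when octyl-L-2HG was added. With both compounds against vehicle it was 0.02, between -0.14 and 0.19 (adjusted p = 0.89). The test over the 3 groups together called Chd5 with an adjusted p of 0.0282, which held under 6 of 7 alternative settings and in 4 of 9 fits without 1 library. Without vehicle library 3 the oxamate step was 0.37 and was called (adjusted p = 0.0112), as it was without oxamate library 4 (0.30, adjusted p = 0.011). Over all 17 alternatives to the oxamate step its adjusted p ran from 0.00566 to 0.259. The octyl-L-2HG step was called in 5 of 17, with total counts, with the length offset and without vehicle library 1, vehicle library 3 or oxamate library 4, and its adjusted p ran from 0.011 to 0.216.

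Chd3, the Mi-2alpha paralog of Chd4, was higher with both compounds than in either other group. Its level (ENSMUSG00000018474) was 46.44, 46.78 and 53.19 CPM in vehicle cells, 51.97, 53.58 and 52.59 with oxamate and 63.21, 62.62 and 58.99 with both compounds. The 3 libraries with both compounds lay above the other 6, and vehicle library 3 lay within the oxamate group. The log2 fold change with both compounds was 0.34 against vehicle (SE 0.07, adjusted p = 0.00184), called in all 17 alternatives, and 0.22 against oxamate (SE 0.07, adjusted p = 0.0442), which was lost under total-count scaling (0.18, adjusted p = 0.109) and without any 1 of vehicle library 2, oxamate libraries 5 and 6 or libraries 7, 8 and 9. Oxamate alone differed from vehicle by 0.11, between -0.04 and 0.26 (adjusted p = 0.464).

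**Figure D3:**
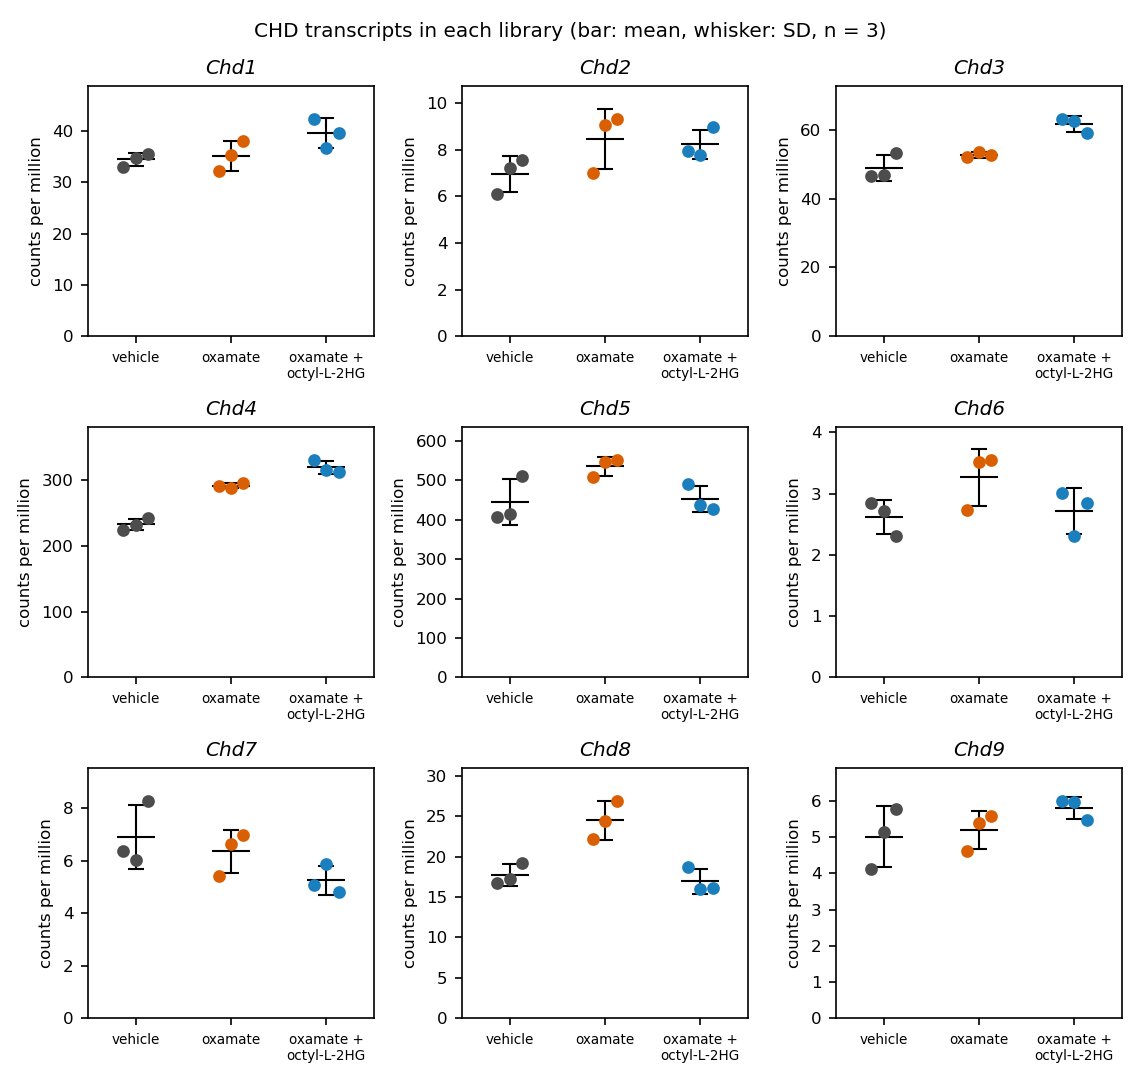
CPM of the 9 CHD genes in each of the 9 libraries by group, on axes that start at 0, with a bar at the mean and whiskers for the SD of 3 libraries. All oxamate libraries lie above the other 6 for Chd8, the 3 groups do not overlap for Chd4, and the libraries with both compounds lie highest for Chd3.

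Chd7, mutated in CHARGE syndrome, was the member that fell with both compounds against vehicle. Its level (ENSMUSG00000041235) was 6.38, 6.053 and 8.296 CPM in vehicle cells, 5.436, 6.66 and 6.984 with oxamate and 5.084, 5.89 and 4.81 with both compounds. Libraries 7 to 9 lay below the vehicle libraries, while the oxamate group overlapped both. The log2 fold change with both compounds against vehicle was -0.40 (SE 0.13, adjusted p = 0.0351). Without vehicle library 3 it was -0.24 (adjusted p = 0.251), and the call was also lost without library 7 (-0.38, adjusted p = 0.128), without library 9 (-0.33, adjusted p = 0.161) and with DESeq2 (-0.38, adjusted p = 0.0539). Oxamate against vehicle gave -0.12, between -0.38 and 0.14, and the second step -0.28, between -0.55 and -0.00, neither of which passed the test.

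The remaining 4 members passed the test in no comparison. Chd1, which binds methylated H3K4 and follows elongating polymerase, stood at 33.04, 34.78 and 35.59 CPM in vehicle cells, 32.19, 35.26 and 38.05 with oxamate and 42.41, 36.6 and 39.67 with both compounds. The libraries with both compounds all lay above the vehicle libraries, and one of them fell within the oxamate range. The log2 fold change was 0.20 with both compounds against vehicle (95% interval 0.04 to 0.36, adjusted p = 0.0878) and 0.03 with oxamate (interval -0.14 to 0.19). Chd2, its subfamily partner and an epilepsy gene in humans, stood at 6.108, 7.195 and 7.563 CPM in vehicle cells, 6.989, 9.05 and 9.322 with oxamate and 7.932, 7.78 and 8.948 with both compounds. Oxamate library 4 lay within the vehicle range while libraries 5 and 6 lay above it. The oxamate effect was 0.28 (interval 0.04 to 0.52, adjusted p = 0.195), and without library 4 it was 0.40 and called (adjusted p = 0.00778).

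Exons of Chd2 overlap those of Chaserr, a long noncoding RNA on the same strand that is known to restrain Chd2, and reads in the overlap may not be assigned to either. Chaserr (ENSMUSG00000101970) stood at 17.5 ± 0.801 CPM in vehicle cells, 15.7 ± 1.64 with oxamate and 18.5 ± 0.635 with both compounds (SD, n = 3), and it passed the test in no comparison. The Chaserr mean was lowest with oxamate, where the Chd2 mean of 8.454 ± 1.28 CPM was highest. Both means were higher with both compounds than with vehicle, Chd2 at 8.22 ± 0.635 against 6.955 ± 0.756 CPM. The Chaserr step from oxamate to both compounds was 0.24 (adjusted p = 0.0785). A link between the levels of Chaserr and Chd2 was not tested.

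Chd6, linked to the response to oxidative stress, had the fewest reads and stood at 2.844, 2.708 and 2.302 CPM in vehicle cells, 2.731, 3.518 and 3.553 with oxamate and 3.001, 2.299 and 2.845 with both compounds. As with Chd2, oxamate library 4 lay within the vehicle range and libraries 5 and 6 above it. The oxamate effect was 0.32 (interval 0.02 to 0.61, adjusted p = 0.253), or 0.43 without library 4 (adjusted p = 0.0481). Chd9, a coactivator of the nuclear receptor PPAR-alpha, stood at 4.105, 5.151 and 5.767 CPM in vehicle cells, 4.606, 5.398 and 5.587 with oxamate and 6.002, 5.953 and 5.457 with both compounds. Its groups overlapped throughout, and its largest difference was 0.21 with both compounds against vehicle (interval -0.04 to 0.47, adjusted p = 0.262).

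Oxamate library 4 decided several counts. Without it, 5 members were called higher with oxamate (Chd2, Chd4, Chd5, Chd6 and Chd8), 4 were called when octyl-L-2HG was added (Chd3, Chd5, Chd7 and Chd8), 5 with both compounds against vehicle (Chd1, Chd2, Chd3, Chd4 and Chd7) and 8 over the 3 groups, all but Chd9. The calls over all genes grew too, from 1303 to 2305 with oxamate, from 2823 to 4417 when octyl-L-2HG was added, from 4534 to 6182 with both compounds against vehicle and from 4974 to 7338 over the 3 groups.

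**Figure D4:**
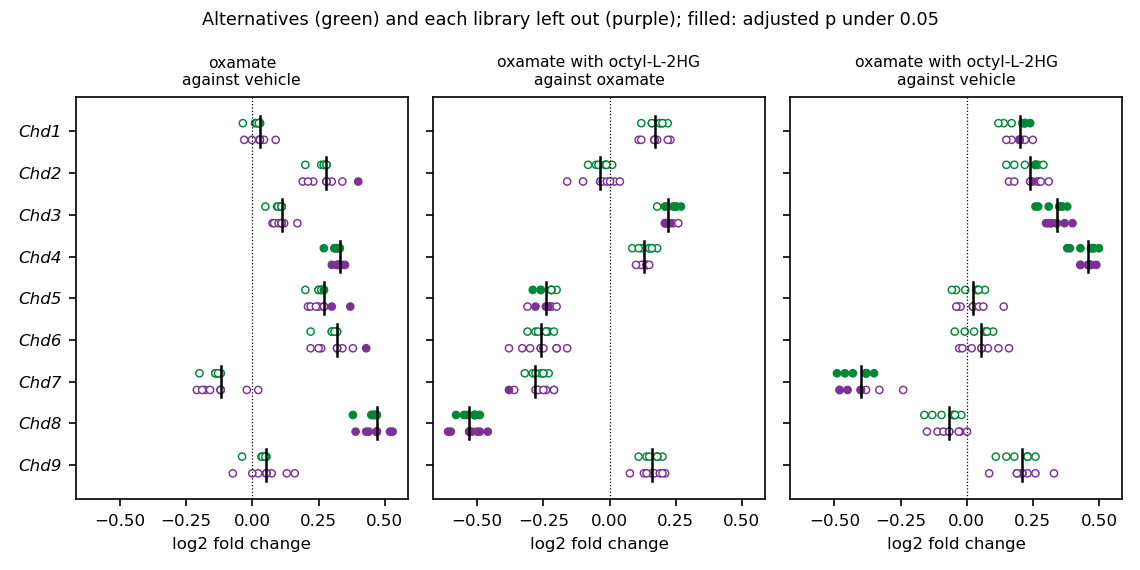
Log2 fold change of each CHD gene under the 8 alternative settings (green) and with each of the 9 libraries left out (purple), filled where the adjusted p was under 0.05, with a black line at the value reported. Chd4 against vehicle and both Chd8 steps are filled throughout, whereas the oxamate effects of Chd2 and Chd6 are filled only without oxamate library 4.

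The CHD genes are long, and log2 fold changes rose with transcript length in these libraries. Each member is longer than at least 88.7% of the genes tested. Over 10696 genes of known length averaging 100 normalized counts or more, Spearman's rho between length and log2 fold change was 0.31 with oxamate, 0.17 for octyl-L-2HG added to oxamate and 0.35 with both compounds against vehicle, as a description across genes, which are not independent replicates. The tenth of these genes with the longest exons, from 9.86 kb, had a median log2 fold change of 0.09 with oxamate, 0.05 at the octyl-L-2HG step and 0.13 with both compounds against vehicle, compared with -0.10, -0.07 and -0.15 for the tenth up to 1.11 kb. Of these longest genes 15%, 22% and 37.5% were called, beside 2, 2 and 3 of the 9 members. With an offset that removed the trend with length in each library, Chd8 moved by 0.38 and -0.54 at the 2 steps and Chd4 by 0.27 and 0.38 against vehicle, and all 4 differences were still called.

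Genes whose profile over the 9 libraries was among the most like that of Chd5 were Afdn (Pearson's r = 0.957 on log2 CPM), the insulin receptor gene Insr (r = 0.955) and the sperm surface protein gene Adam1a (r = 0.952). For Chd4 they were the heat shock factor gene Hsf5 (r = 0.994), Tsc22d2 (r = 0.992), the Golgi gene Cog3 (r = 0.992), the nucleolar GTPase gene Gnl3 (r = 0.991) and the RNA helicase gene Ddx42 (r = 0.989). They were among the highest of 10715 genes, the points share the 3 treatment groups and their libraries, and no test was made.

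Of 12 other NuRD subunits, 2 rose with oxamate, 1 fell when octyl-L-2HG was added and 3 were higher with both compounds than with vehicle. Over all genes tested 3.97% rose, 8.06% fell and 7.48% rose in these comparisons, and of the 10715 more abundant genes 866 rose, 1361 fell and 1712 rose. With 1 library left out, the last count fell to 1 (without vehicle library 2 or 3 or any of libraries 7 to 9) or 2 (without vehicle library 1 or oxamate library 5) and rose to 5 without oxamate library 4, and the first was 1 without any 1 of vehicle libraries 1 to 3, oxamate libraries 5 and 6 or libraries 7 and 8. The medians were 0.06, 0.03 and 0.09, and over the 8 alternative settings they ran from 0.04 to 0.09, from -0.01 to 0.07 and from -0.02 to 0.14. The first was 0.01 without oxamate library 4, 0.02 without vehicle library 3 and 0.12 without vehicle library 1. Without oxamate library 4, 1 subunit was also called higher at the octyl-L-2HG step. The GATA zinc finger subunit Gatad2a, which links Chd4 to the rest of the complex, stood at 77.55, 70.54 and 81.42 CPM in vehicle cells, 119.4, 106.9 and 108.2 with oxamate and 108.7, 101.4 and 101.1 with both compounds. All treated libraries lay above the vehicle libraries, and the log2 fold changes against vehicle were 0.54 (SE 0.07, adjusted p = 7.66e-05) and 0.44 (SE 0.07, adjusted p = 0.000148), both kept in all 17 alternatives. Its paralog Gatad2b stood at 55.96, 57.8 and 60.63 CPM in vehicle cells, 66.84, 71.7 and 71.88 with oxamate and 54.94, 56.19 and 46.96 with both compounds. The oxamate libraries of Gatad2b lay above the other 6, as those of Chd8 did, with changes of 0.27 (adjusted p = 0.0364, called in 6 of 17 alternatives) and then -0.41 (adjusted p = 0.00102, called in all 17).

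The other NuRD calls were smaller. The subunit gene Mta2 had a log2 fold change of 0.26 (adjusted p = 0.0284) and Mbd2, which reads methylated DNA, 0.23 (adjusted p = 0.0455) with both compounds against vehicle, and both were lost under total-count scaling and held in 11 and 8 of 17 alternatives. The deacetylase genes Hdac1, at 251.7 ± 14.5 CPM in vehicle cells, and Hdac2 (29.23 ± 1.23) passed no test, nor did Mta1 (118.2 ± 3.27), Mta3 (9.056 ± 0.444), Mbd3 (74.99 ± 6.57), Rbbp4 (87.36 ± 6.19), Rbbp7 (1.688 ± 0.262) or Cdk2ap1 (7.915 ± 0.524), each as SD with n = 3.

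Among 14 partners of CHD proteins outside NuRD, 1 rose with oxamate, 2 rose when octyl-L-2HG was added and 6 were higher with both compounds than with vehicle, with none lower. Over all genes tested 3.97%, 3.18% and 7.48% rose, and of the more abundant genes 29.5% were called in the last comparison. The count with oxamate was 2 without oxamate library 4, without oxamate library 6 and with the filterByExpr filter. The count of 6 fell to 3 without library 8 or 9 and to 4 without library 7 or any 1 vehicle library. The medians were 0.14, 0.05 and 0.22. The elongation factor gene Rtf1, whose product recruits Chd1 to transcribed genes, stood at 27.92, 30.53 and 30.81 CPM in vehicle cells, 39.26, 48.02 and 46.13 with oxamate and 45.29, 41.07 and 39.83 with both compounds. The treated libraries of Rtf1 all lay above the vehicle libraries, by 0.58 (SE 0.08, adjusted p = 0.000174) and 0.50 (SE 0.08, adjusted p = 0.000187). The heterochromatin protein gene Cbx3 (0.36, adjusted p = 0.0023) and Ssrp1, a subunit of the histone chaperone FACT (0.28, adjusted p = 0.00739), rose at the octyl-L-2HG step. With both compounds against vehicle, Ctcf, a partner of Chd8 at insulators, rose by 0.31 (adjusted p = 0.00551), Ssrp1 by 0.29 (adjusted p = 0.00261), Cbx1 by 0.35 (adjusted p = 0.0348), Wdr5 by 0.27 (adjusted p = 0.0228) and Cbx3 by 0.24 (adjusted p = 0.0216). Of these last calls, those of Cbx1, Wdr5 and Cbx3 held in 9, 11 and 11 of 17 alternatives. All 3 were lost under total-count scaling, which left 3 of 14 called higher and, when octyl-L-2HG was added, 1 of 14 called lower.

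Genes of the histone-to-protamine exchange that passed the test mostly fell. Of 21 genes, 4 fell and none rose with oxamate, 10 fell and 1 rose when octyl-L-2HG was added, and 10 fell and 2 rose with both compounds against vehicle. Over all genes tested 1.22%, 8.06% and 10.6% fell and 3.97%, 3.18% and 7.48% rose. Of the 10715 more abundant genes, which include 19 of the 21, 170, 1361 and 1454 fell and 866, 756 and 1712 rose. At an unadjusted p under 0.05, 5 of the 21 (23.8%) differed with oxamate, 15 (71.4%) at the octyl-L-2HG step and 14 (66.7%) with both compounds against vehicle, where 25.7%, 36.8% and 44.1% of the more abundant genes did. DESeq2 called 0 higher and 4 lower with oxamate, 3 and 10 at the octyl-L-2HG step and 3 and 10 against vehicle. With 1 library left out, 3 to 6 fell with oxamate, highest without oxamate library 4, 8 to 10 fell at the octyl-L-2HG step and 9 to 10 with both compounds against vehicle. The number that rose at the octyl-L-2HG step was 4 with no filter on low counts, 2 without oxamate library 4 and 0 without oxamate library 5, oxamate library 6 or library 8. The medians were -0.07, -0.09 and -0.25. That of the octyl-L-2HG step moved most, to -0.31 with only the genes averaging 100 normalized counts, -0.02 without oxamate library 4, -0.22 without oxamate library 6 and -0.18 without library 8, and the last was -0.15 without vehicle library 2. The protamine gene Prm1 stood at 144.8, 139.0 and 126.6 CPM in vehicle cells, 99.83, 101.8 and 99.02 with oxamate and 81.15, 78.36 and 80.48 with both compounds. The 3 groups of Prm1 did not overlap, with a log2 fold change of -0.45 (SE 0.07, adjusted p = 0.000224) with oxamate and a further -0.32 (SE 0.07, adjusted p = 0.0027) when octyl-L-2HG was added. Prm2 (-0.38, adjusted p = 0.000746) and the transition protein genes Tnp2 (-0.32, adjusted p = 0.00607) and Tnp1 (-0.26, adjusted p = 0.0192) also fell with oxamate. With the length offset Tnp1 and Tnp2 were no longer called there and 2 of 21 fell. The same offset left 9 lower at the octyl-L-2HG step and 10 with both compounds against vehicle. The oxamate call of Tnp1 held in 13 of 17 alternatives. It was also lost with only the 2 groups compared and without vehicle library 1 or 2, and its smallest value was -0.16.

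The largest fall at the octyl-L-2HG step was that of the spermatid kinase gene Tssk6, needed for histone removal, at 40.04, 31.78 and 29.9 CPM in vehicle cells, 35.1, 30.59 and 26.93 with oxamate and 15.99, 17.42 and 17.51 with both compounds. Vehicle and oxamate overlapped, and the step was -0.86 (SE 0.11, adjusted p = 2.03e-05). The spermatid linker histone genes H1f7 (-0.49, adjusted p = 7.04e-05) and H1f9 (-0.46, adjusted p = 0.00229), Tnp2 (-0.43, adjusted p = 0.000293) and the calmodulin kinase gene Camk4 (-0.36, adjusted p = 0.00295) fell at this step too. The gene that rose was Parp1 (0.34, adjusted p = 0.0102), a poly-ADP-ribose polymerase, whose call was lost without oxamate library 5, oxamate library 6 or library 8. With both compounds against vehicle the acetyltransferase gene Kat5 rose by 0.32 (adjusted p = 0.00363) and its complex partner Epc1 by 0.30 (adjusted p = 0.003), whereas Tssk6 fell by 1.00 on the log2 scale (adjusted p = 1.13e-06). In the same comparison the log2 fold change was -0.77 for Prm1, -0.75 for Tnp2, -0.68 for Prm2, -0.56 for Tnp1 and -0.54 for H1f7, each called in all 17 alternatives. Their smallest values there were -0.58, -0.56, -0.53, -0.34 and -0.43 in the same order. The bromodomain gene Brdt, whose product starts histone eviction, stood at 392.8 ± 34.2, 374.2 ± 38.1 and 431.3 ± 14.3 CPM in the 3 groups (SD, n = 3) and passed no test. The share of spermatids in later steps of development was not measured, and its part in these values was not tested.

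**Figure D5:**
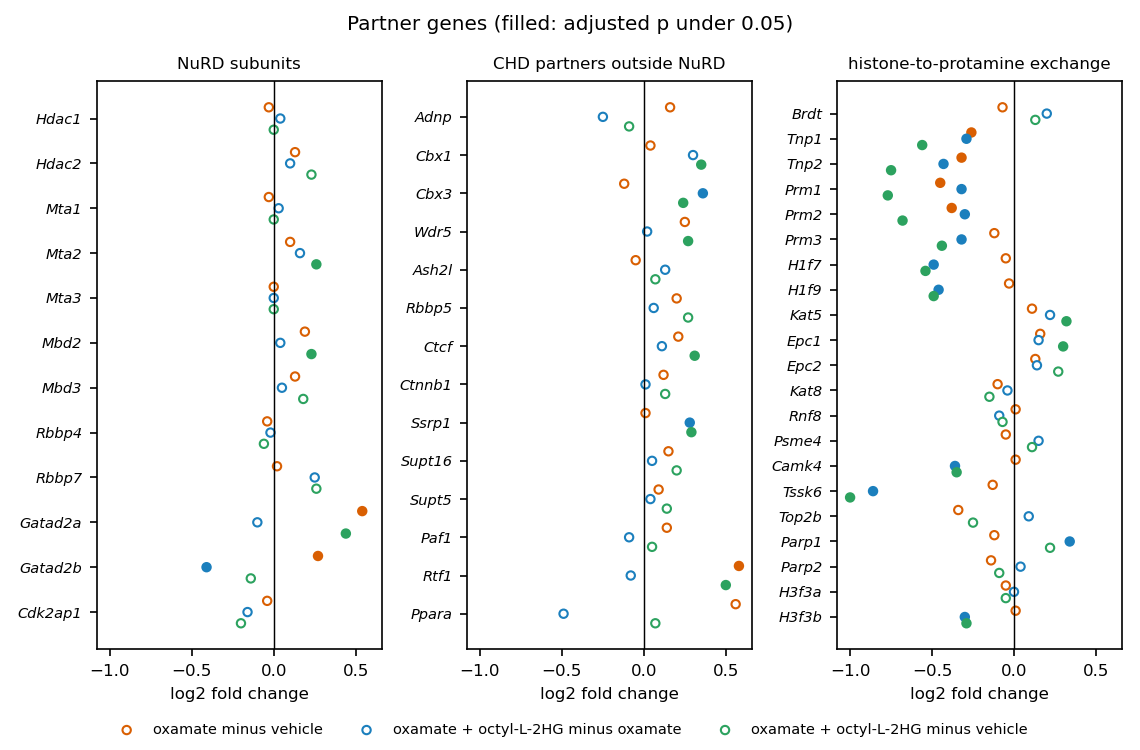
Log2 fold change of 12 NuRD subunits, 14 other partners of CHD proteins and 21 genes of the histone-to-protamine exchange in the 3 comparisons, filled where the adjusted p was under 0.05. Filled points lie right of 0 for the partners outside NuRD, while 10 exchange genes have filled points left of 0 with both compounds against vehicle.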

How the data were processed

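Polyadenylated RNA was sequenced from 9 RS libraries. The authors trimmed reads with cutadapt 2.10, aligned them with TopHat2 2.1.1 to the GRCm39 mouse genome and deposited HTSeq 2.01 counts per gene. They also deposited a normalized signal, the count divided by a DESeq2 1.36.0 size factor, which served only for the limit on mean level. The strand setting of the counting was not given in the sources used here, and labels and methods name different sequencers.

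Genes with at least 10 counts over the 9 libraries were fitted with edgeR 4.0.16 (R 4.3.3): TMM scaling, group as the only term, robust quasi-likelihood test and Benjamini-Hochberg adjustment at 0.05. The test was tested on simulated data. CPM used the TMM library size. Exon lengths came from GENCODE vM21 on GRCm38, matched by identifier for 99.6% of genes tested. The study states triplicate incubations, and no source used here says that they came from separate animals, so p-values measure only the spread between these libraries. No column of values went unused.

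The members and lists were chosen with earlier results of these data known. Named were the 9 members, the NuRD subunits, genes called in other lists (at most 6 per list and comparison by size), and the 5 genes most correlated with Chd5 and with Chd4, the member with the smallest p over the 3 groups. Brdt, Kat5, Epc1, Chaserr and the marker genes Lyz2, Gapdhs, Acrv1, Dazl, Uchl1, Zbtb16 and Dmrt1 were named after their values were seen. Some genes that the rule covers are not reported here. Alternatives were DESeq2 1.42.0 as test, its size factors or total counts as scaling, 3 other filters, fits of the 2 groups compared, a length offset and each library left out.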

Additional observations from a re-analysis of the deposited data

How the results depend on the processing

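Library numbers run on across the groups, and no source used here says whether libraries of different groups were matched, so no paired analysis was made. Of the values of single CHD genes under the alternatives, 410 kept their direction and side of the threshold, 11 lost and 16 gained a call, and 22 changed sign, all of differences that had not been called. With 1 library left out, the number of CHD genes called ran from 2 to 5 with oxamate, 1 to 4 when octyl-L-2HG was added, 2 to 5 with both compounds against vehicle and 3 to 8 over the 3 groups, each highest without oxamate library 4. Fitting only the 2 groups compared gave 5 with both compounds against vehicle, and no other setting moved a count by over 1.5 times. With oxamate, the length offset turned Chd1 to -0.036 and Chd9 to -0.039. At the octyl-L-2HG step Chd2 was 0.01 with no filter on low counts. With both compounds against vehicle, Chd5 was -0.04 with total counts, -0.0054 with only genes averaging 100 normalized counts or more and -0.056 with the length offset, and Chd6 was -0.0073 with total counts and -0.045 with the length offset. With 1 library left out, the values with oxamate ran from -0.031 to 0.088 for Chd1, -0.21 to 0.022 for Chd7 and -0.074 to 0.16 for Chd9. That of Chd2 ran from -0.16 to 0.039 at the octyl-L-2HG step, and those with both compounds against vehicle ran from -0.039 to 0.14 for Chd5, -0.028 to 0.16 for Chd6 and -0.15 to 0.0012 for Chd8. The cause of these shifts was not tested. Chd6 had the fewest counts, 73 to 131 per library.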
